A study of Mus musculus with 28 samples.

Results

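The *Zfp* genes expressed in naïve CD4+ T cells on the way to Th9 cells are described here. Members were selected on measured values. They are the rows of the RNA-seq table whose symbol is Zfp followed by digits only, with a mean of at least 1 RPKM (reads per kilobase of gene, scaled to the depth of the library) over 24 libraries. Of 333 such rows, 201 passed and 132 did not, and 8 of those were at 0 in every library. Among all 24089 genes of the table, 9726 reached the same mean, so every member was also a gene tested. The last members inside the threshold were *Zfp69* with a mean of 1.02 RPKM, *Zfp597* with 1.02 and *Zfp455* with 1.04. The first rows outside were *Zfp438* with 0.98, *Zfp948* with 0.97 and *Zfp947* with 0.96. In 189 members the mean of each of the 8 cultures was at least 1 RPKM, and 12 members had a culture below it.

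The cells came from *Tgfbr1* f/f *Ert2-cre*+ mice on a C57BL/6 background, young adults of either sex whose Cre is switched on by tamoxifen. The promoter of the transgene is not given in the sources used here. WT mice received oil and KO mice tamoxifen, which deletes *Tgfbr1*, the gene of TGF-β receptor I, so that the drug and the deletion cannot be told apart between the genotypes. Cells of each genotype were stimulated through the TCR (anti-CD3 and anti-CD28), in replicates numbered 1 to 3. They were grown in medium alone (control) or with TGF-β, with IL-4, or with both (TGF-β + IL-4, the Th9 condition). RNA-seq gave 24 libraries, 3 for each of 8 cultures. The replicate number was read as the mouse within a genotype, which the library titles (WT1 to WT3, KO1 to KO3) do not state. DNase-seq, which maps open chromatin, gave 1 library for control and for TGF-β + IL-4 in each genotype, each labelled replicate 3.

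The headings of the RNA-seq columns are in conflict with the read counts that the study lists for 8 of the WT libraries. When each of these 8 libraries was matched to a column by which genes were at 0, all 8 matched the column at their place in the order of library numbers, and 2 matched the column that carried their heading. Columns were therefore read by position, which gives 20 of 24 columns to another library than their heading does. The other 16 columns, including all 12 KO columns, had no counts to compare and rest on position alone. Within a culture of WT cells, the median SD of log2(RPKM + 1) over genes was 0.089 by position and 0.14 as headed, and in KO cells it was 0.11 by either reading. All 20 calls of members given below were lost when the columns were read as headed.

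*Tgfbr1* itself was measured first as a check of the labels. It was at 3.02, 3.25 and 3.31 RPKM in WT control, at 13.9, 14 and 14.5 in WT TGF-β and at 17.6, 19.5 and 20.7 in WT TGF-β + IL-4. In the 12 KO libraries it lay between 2.32 and 5.18, with the highest in KO TGF-β + IL-4 replicate 2. KO libraries were thus close to WT libraries made without TGF-β and did not show the higher level of WT cells given TGF-β. The RPKM counts the whole gene, so it does not show whether the floxed part was lost. KO TGF-β + IL-4 replicate 2 stood apart from its group, with an SD of 0.20 around the group means (log2 scale, over genes) where the other 23 libraries had 0.077 to 0.15.

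Of the marker lists, 8 of 8 genes listed for CD4 T cells were measured and summed to 1370 to 1840 RPKM. Most of these are T cell genes not particular to CD4 T cells, and *Cd4* itself had a mean of 95.5. The sums were 8.14 to 33.8 for 5 B cell genes and 1.40 to 3.23 for 3 dendritic cell genes. The 6 myeloid genes summed to 3.83 to 7.02 RPKM in WT control libraries and 7.38 to 19 in WT TGF-β. In WT IL-4 they summed to 2.85 to 4.57, and in WT TGF-β + IL-4 to 8.36 to 17.9. In KO cells the sums were 0.590 to 2.64 in control and 1.66 to 10.7 in TGF-β. They were 1.76 to 5.72 in KO IL-4 and 3.37 to 7.21 in KO TGF-β + IL-4. *Lyz2* made up most of the sum in each WT library. In KO control replicates 1 and 2 *Mpo* was higher than *Lyz2*, at 1.95 and 0.358 against 0.266 and 0.111. *Mpo* was also the higher in KO IL-4 replicate 2, at 0.884 against 0.72. *Csf1r* stayed at or below 0.433 in all libraries and *Cd14* was at 0 in 8. The 2 CD8 genes summed to 24.8 to 26.9 in WT control and 14.8 to 16.7 in KO control. The 3 NK cell genes summed to 1.49 to 6.90 and the 3 erythroid genes to 0 to 22. The part of these cells in the results was not tested. In bulk RNA, fewer cells of a type and less RNA per cell cannot be told apart.

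Zfp is the mouse symbol for zinc finger protein. Most such proteins hold arrays of C2H2 fingers, each a short loop held by a zinc ion, and successive fingers read neighbouring bases of DNA. Many also carry a KRAB domain, which binds the co-repressor TRIM28 (KAP1) and, through SETDB1 and HP1 proteins, lays down repressive chromatin, above all over transposable elements. Others with the same symbol have unrelated work, such as mRNA decay, splicing or building ribosomes. KRAB zinc finger genes lie in clusters of recent duplicates.

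In the GENCODE vM1 coding sequences of 197 members, 192 held at least 1 C2H2 pattern, with a median of 10 and a highest count of 40 in *Zfp142*, and 162 held 5 or more. By comparison, 3.04% of the other tested genes held 1. A KRAB-like pattern, meaning conserved letters of the KRAB A box near the start of the protein rather than a domain call, was found in 81 members (41.1%) and in 0.404% of the other tested genes. The 5 members with no C2H2 pattern included *Zfp36*, which holds 2 CCCH fingers and binds AU-rich elements of mRNAs such as those of cytokines to speed their decay, and *Zfp330*, *Zfp703*, *Zfp839* and *Zfp850*.

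Of 194 members placed in the annotation of the mm9 build, 55 lay on chromosome 7 and 24 on chromosome 17. Runs of at least 3 members with starts no more than 500 kb apart took in 101 members in 18 runs. The longest were 11 members from *Zfp160* to *Zfp946* on chromosome 17 and 11 from *Zfp84* to *Zfp146* on chromosome 7. Members can also share sequence with other genes. In 15 members, over 10% of the 50-base words in the transcripts also occurred in another gene. The share was over 50% in *Zfp534*, *Zfp960* and *Zfp97*, which are in none of the 18 runs, and their RPKM are uncertain for that reason.

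The 250 bases before the annotated start of 3 genes on which the comparisons below turn are shown next, 5′ to 3′ on the strand of the gene. They come from the mm9 genome, the build of the deposited files. Capitals mark the letters CAGAC or, on the other strand, GTCTG, the core that Smad proteins bind.
*Zfp358* (chr8:3492888-3493137, plus strand): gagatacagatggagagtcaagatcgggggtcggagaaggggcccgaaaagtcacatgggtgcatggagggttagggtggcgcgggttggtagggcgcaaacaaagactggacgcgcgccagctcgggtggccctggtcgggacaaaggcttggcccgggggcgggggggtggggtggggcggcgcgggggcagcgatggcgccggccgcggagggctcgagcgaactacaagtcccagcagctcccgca
*Zfp426* (chr9:20297191-20297440, minus strand): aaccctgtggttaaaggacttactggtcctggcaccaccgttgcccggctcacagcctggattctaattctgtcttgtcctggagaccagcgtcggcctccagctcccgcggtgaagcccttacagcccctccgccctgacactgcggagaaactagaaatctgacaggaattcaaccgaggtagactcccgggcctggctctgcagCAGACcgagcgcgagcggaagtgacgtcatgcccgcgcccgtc
*Zfp580* (chr7:5002884-5003133, plus strand): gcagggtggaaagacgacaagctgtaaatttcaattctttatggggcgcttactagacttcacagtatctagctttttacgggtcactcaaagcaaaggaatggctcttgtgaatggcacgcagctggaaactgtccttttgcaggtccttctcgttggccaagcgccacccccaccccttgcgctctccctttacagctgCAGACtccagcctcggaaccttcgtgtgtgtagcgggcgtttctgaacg

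The window of *Zfp358* held no such letters, and those of *Zfp426* and *Zfp580* held 1 copy each. On either strand, CAGAC occurred in 100 of 194 member windows (51.5%) and in 40.2% of the 8990 windows of tested genes. The letters TTC and GAA with 4 bases of any kind between them, which Stat proteins bind, occurred in 18 member windows (9.28%) and in 4.75% of all, and in none of the 3 shown. The Sp1 letters GGGCGG were in 81 member windows (41.8%) and in 55.8% of all, and the Smad palindrome that joins GTCT and AGAC was in 1 member window (0.515%) and in 0.2% of all. A match of letters is a description and not a bound site.

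Most members were expressed at a low level. Their mean RPKM ran from 1.02 to 142 with a median of 2.97, and 102 of 201 lay below 3, whereas the median of all genes tested was 11.9. Since the mean was what chose the members, these levels are a description. *Zfp207* (BuGZ, a spindle protein) was highest, at 126 to 155 RPKM in the 24 libraries, followed by *Zfp706* with a mean of 74.8, *Zfp330* with 43.7 and *Zfp622* with 42.9. *Zfp622* takes part in maturation of the large ribosomal subunit. *Zfp771*, *Zfp511*, *Zfp593*, *Zfp637*, *Zfp277* and *Zfp422* completed the 10 highest, between 16.7 and 36.3, and none of the 10 had a KRAB-like pattern. The median of mean RPKM was 2.15 for the 81 members with a KRAB-like pattern and 4.34 for the 116 without.

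**Figure D1:**
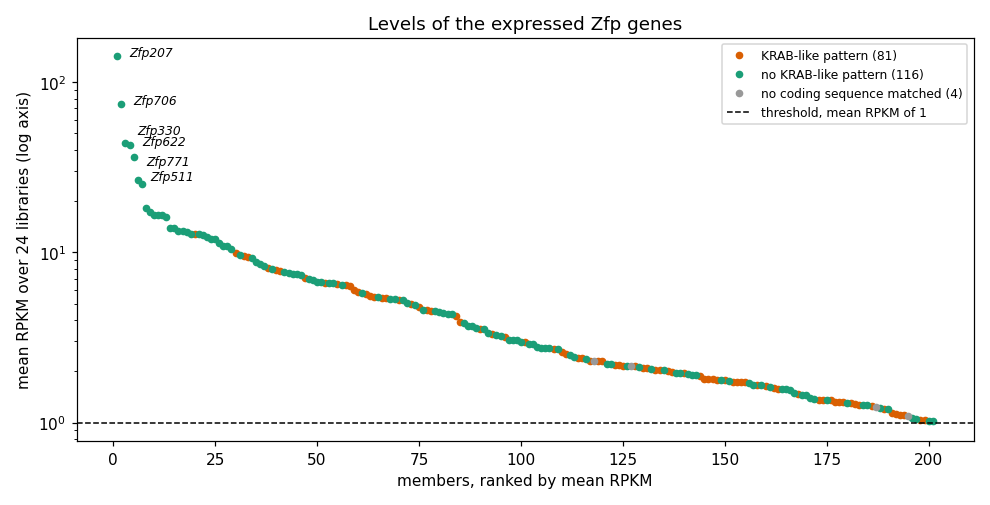
Mean RPKM over 24 libraries (log axis) of the 201 expressed *Zfp* genes, ranked, with members coloured by whether their coding sequence holds a KRAB-like pattern and the threshold of 1 RPKM dashed. A few genes led by *Zfp207* at 142 RPKM stand above a long shelf, and 102 members lie below 3.

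On the log2(RPKM + 1) scale, the levels of most members moved little between cultures. The range over the 8 culture means of log2(RPKM + 1) had a median of 0.29, and 178 members stayed within 0.58, a fold of 1.5. The same range was not taken over all genes, so it describes the members and does not set them apart. Among the members, it was largest in those named next. It was over 1 in 5 members, namely *Zfp935* (1.46), *Zfp467* (1.33), *Zfp358* (1.23), *Zfp426* (1.12) and *Zfp362* (1.06). Comparisons were fitted with limma on log2(RPKM + 1) over all 9726 genes, and calls needed a fold over 1.5 on that scale and a p under 0.01 after Benjamini-Hochberg adjustment. That scale understates the change of low genes. In all, 16 members were called in at least 1 of 11 comparisons, 4 of them in 2, and 185 in none.

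**Figure D2:**
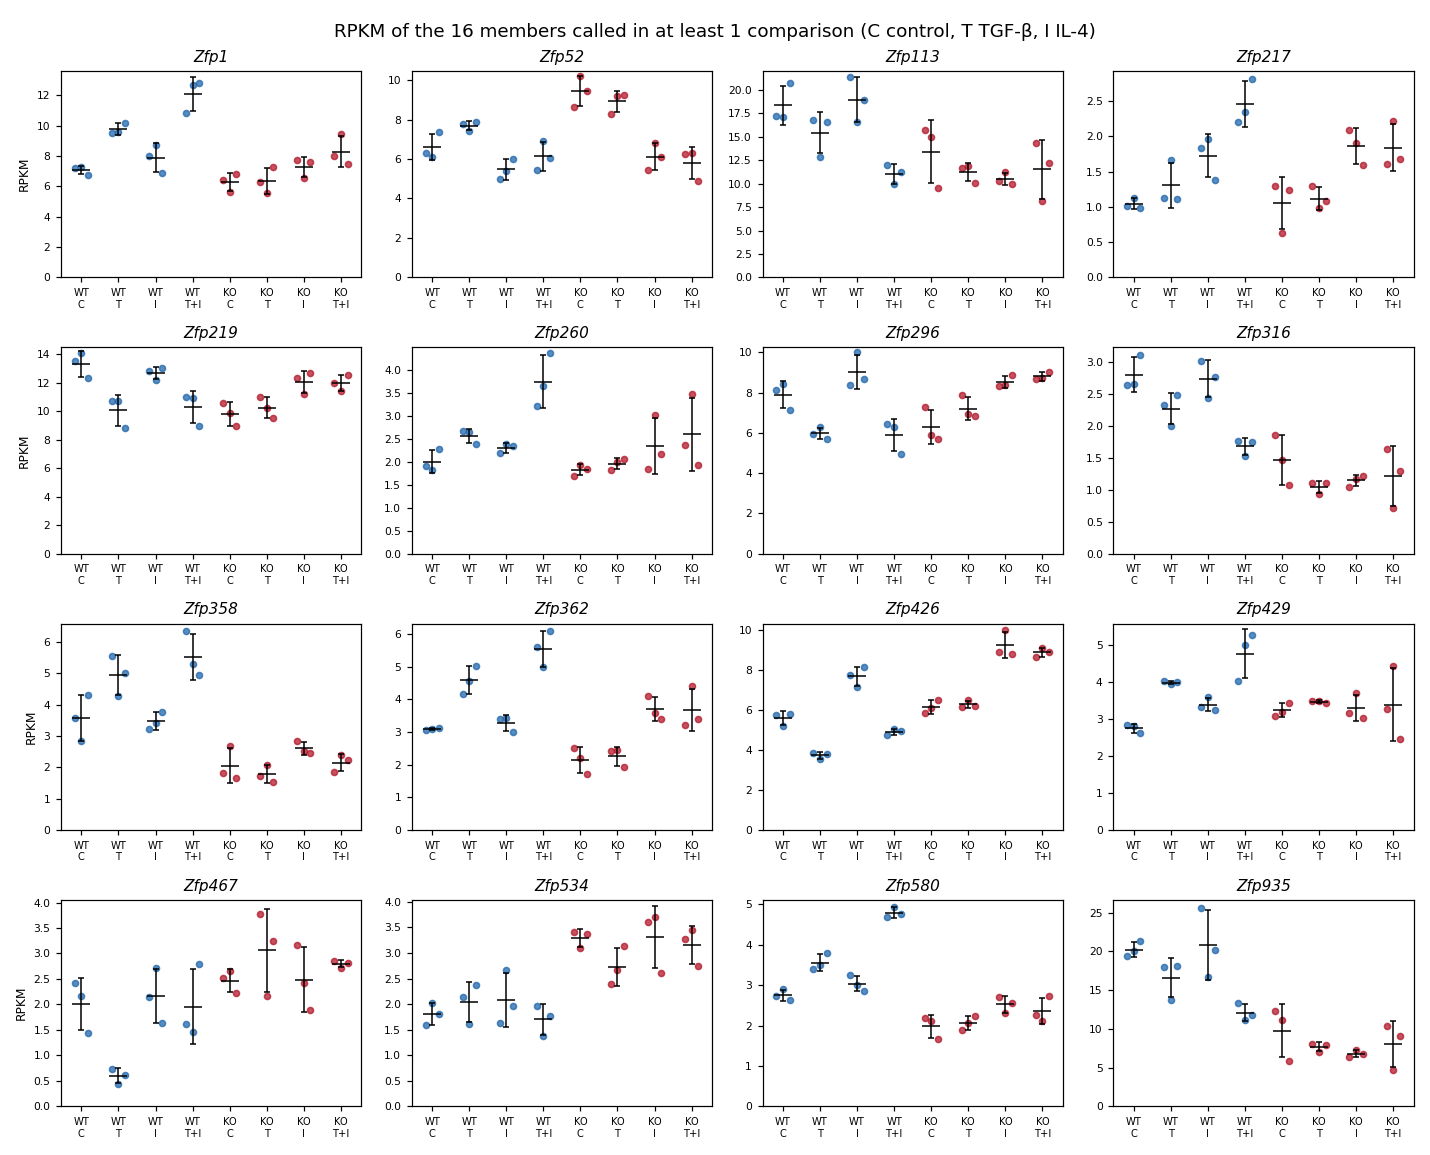
RPKM of the 16 members called in at least 1 comparison, by culture (C control, T TGF-β, I IL-4, T+I both), with WT libraries in blue and KO libraries in red. Points are libraries, the black dash is the mean and the bar is 1 SD (n = 3). *Zfp467* drops in WT TGF-β alone, and *Zfp580* is highest in the 3 WT TGF-β + IL-4 libraries.

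The response of WT cells to TGF-β alone was led by a fall of *Zfp467*, a C2H2 factor known for favouring fat over bone cell fate. It was measured at 2.42, 2.16 and 1.44 RPKM in WT control and at 0.741, 0.443 and 0.624 in WT TGF-β, so the groups did not overlap. In KO cells it was 2.52, 2.66 and 2.23 in control and 3.77, 2.17 and 3.25 in TGF-β, which overlap. The fall in WT was 0.90 ± 0.17 on the log2 scale (SE, limma adjusted p = 0.000657). It was the only member called of 201, where 5.4% of all genes tested were called. The response of WT cells differed from that of KO cells by −1.11 ± 0.25 (limma adjusted p = 0.00424 for genotype by TGF-β), again the only member called against 4.23% of all genes. The fall in WT lost its call without replicate 1 (−0.86, adjusted p = 0.0285 by limma) and without replicate 2 (−0.78, adjusted p = 0.0181). The difference between genotypes lost it without replicate 1, 2 or 3, with values of −0.95 to −1.20. IL-4 went with a level closer to control, as *Zfp467* was at 1.61, 1.47 and 2.80 in WT TGF-β + IL-4, but the TGF-β by IL-4 interaction in WT (0.79, limma adjusted p = 0.0614) did not pass.

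At an adjusted p under 0.05 with no minimum fold, WT TGF-β had 19 higher and 5 lower members, against 11.6% and 8.28% of all genes. Scaling the libraries by median ratios gave 17 higher and 9 lower. Leaving out replicate 1, 2 or 3 left 4 to 8 higher and 3 to 4 lower. The members with the largest differences below the fold were *Zfp426* at −0.48, *Zfp944* at 0.45, *Zfp667* at 0.45, *Zfp362* at 0.45 and *Zfp1* at 0.42. The median change of the 201 members was 0.071, against 0.0090 for all genes, and 147 members (73.1%) lay above 0, against 52.5% of all genes. In KO cells given TGF-β no member was called (0.0617% of all genes were), with 1 member higher and 3 lower at an unadjusted p under 0.05 in limma, against 1.61% and 1.27% of all genes. The median there was 0.013.

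IL-4 alone called no member in WT cells, where 1.31% of all genes were called, and at an unadjusted p under 0.05 in limma 17 were higher and 3 lower, or 8.46% and 1.49% of members, against 8.5% and 7.49% of all genes. In KO cells IL-4 called no member either, against 2.65% of all genes, with 24 higher and 9 lower at an unadjusted p under 0.05, where 13.7% and 10.2% of all genes were. *Zfp426*, a KRAB zinc finger gene on chromosome 9, was the member with the smallest p in both. It stood at 5.77, 5.19 and 5.80 RPKM in WT control and at 7.74, 7.17 and 8.13 in WT IL-4. In KO cells it was 5.84, 6.08 and 6.51 in control and 8.92, 10.0 and 8.82 in IL-4. All IL-4 libraries were thus above all control libraries, with differences of 0.40 in WT (limma adjusted p = 0.000186) and 0.52 in KO (limma adjusted p = 3.04e-06), both under the fold of 1.5. Other members below that fold in KO IL-4 were *Zfp362* at 0.58, *Zfp52* at −0.55 and *Zfp217* at 0.49, each at an adjusted p under 0.05.

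TGF-β + IL-4 was the condition with the most members called in WT, 6 higher and 1 lower, or 7 of 201 where 8.46% of all genes were called. *Zfp217*, whose human counterpart is an oncogene and part of a CtBP co-repressor complex, was at 1.01, 1.13 and 0.987 RPKM in WT control and rose to 2.20, 2.35 and 2.82 with both cytokines. The groups did not overlap, and the difference was 0.76 ± 0.13 (limma adjusted p = 9.54e-05). In KO cells *Zfp217* was at 1.29, 0.625 and 1.24 in control and 1.61, 2.22 and 1.68 with both cytokines, a difference of 0.48 that did not pass (limma adjusted p = 0.0177), and the genotypes' responses did not differ at the threshold (0.28, limma adjusted p = 0.305).

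*Zfp580*, which codes for a small protein of 172 residues with 3 fingers, rose from 2.74, 2.89 and 2.62 RPKM to 4.67, 4.94 and 4.76, by 0.63 ± 0.080 (limma adjusted p = 3.06e-06). With TGF-β alone it lay between these levels, at 3.39, 3.49 and 3.79, and with IL-4 alone, at 3.24, 3.00 and 2.86, it overlapped control. In KO TGF-β + IL-4 it was at 2.25, 2.12 and 2.72, below all libraries of WT TGF-β + IL-4.

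*Zfp1* was at 7.21, 7.25 and 6.74 RPKM in WT control and 10.8, 12.7 and 12.8 with both cytokines, a rise of 0.70 ± 0.10 (limma adjusted p = 1.42e-05). *Zfp362* went from 3.07, 3.08 and 3.13 to 5.59, 4.98 and 6.08, by 0.67 ± 0.10 (limma adjusted p = 3.61e-05). Both were also higher in WT TGF-β, at 9.48 to 10.2 and 4.16 to 5.03, than in any control library. *Zfp362* was higher in KO TGF-β + IL-4 too, at 3.23, 4.42 and 3.39 RPKM against 2.50, 2.22 and 1.73 in KO control, by 0.57 (limma adjusted p = 0.000654), just under the fold.

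*Zfp260*, a C2H2 protein described in the heart, rose from 1.90, 1.82 and 2.28 RPKM to 3.21, 3.65 and 4.36, by 0.65 ± 0.13 (limma adjusted p = 0.000429). *Zfp429*, a KRAB zinc finger gene, rose from 2.84, 2.82 and 2.62 to 4.02, 5.00 and 5.29, by 0.61 ± 0.11 (limma adjusted p = 0.000196). Of the 50-base words of *Zfp429*, 26.4% also occurred in another gene. *Zfp113* was the member that fell, from 17.2, 17.1 and 20.8 RPKM to 12, 9.92 and 11.2, by 0.69 ± 0.17 on the log2 scale (limma adjusted p = 0.00279). Without replicate 3 the calls of *Zfp113* (−0.61), *Zfp217* (0.66), *Zfp260* (0.63) and *Zfp429* (0.52) were lost, and without replicate 1 those of *Zfp113* (−0.78) and *Zfp260* (0.71). The calls of *Zfp429* (0.57) and *Zfp580* (0.58) fell just under the fold with libraries scaled by median ratios.

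At an adjusted p under 0.05, 53 members were higher and 16 lower, where 22.5% and 18.6% of all genes were. The share of members that were lower was thus 7.96%, and the share that were higher 26.4%. Scaling by median ratios gave 40 higher and 19 lower. Leaving out replicate 1, 2 or 3 gave 27 to 30 higher and 6 to 12 lower. The median change of the 201 members was 0.10, against 0.020 over all genes, and 0.11 for members with a KRAB-like pattern and 0.10 for those without. In KO cells, TGF-β + IL-4 called 1 member, against 2.86% of all genes. At the wider threshold 9 members were higher and 1 lower there, against 7.15% and 3.91% of all genes, and without KO TGF-β + IL-4 replicate 2 there were 3 and 1. Leaving out replicate 1, 2 or 3 gave 2 to 4 higher and 1 to 2 lower.

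The member called in KO cells was *Zfp52*, which fell. It was at 8.66, 10.2 and 9.46 RPKM in KO control and 6.26, 6.31 and 4.87 with both cytokines, a fall of 0.62 ± 0.098 on the log2 scale (limma adjusted p = 0.000118). The groups did not overlap. In KO IL-4 it was at 5.46, 6.80 and 6.11, and in KO TGF-β at 8.28, 9.21 and 9.27, so the lower levels were in the cultures with IL-4. In WT it was at 6.33, 6.12 and 7.36 in control and 5.45, 6.90 and 6.06 with both cytokines. The call was lost without replicate 3 (−0.51, limma adjusted p = 0.0217) and with only these 2 KO cultures in the fit (adjusted p = 0.0188).

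**Figure D3:**
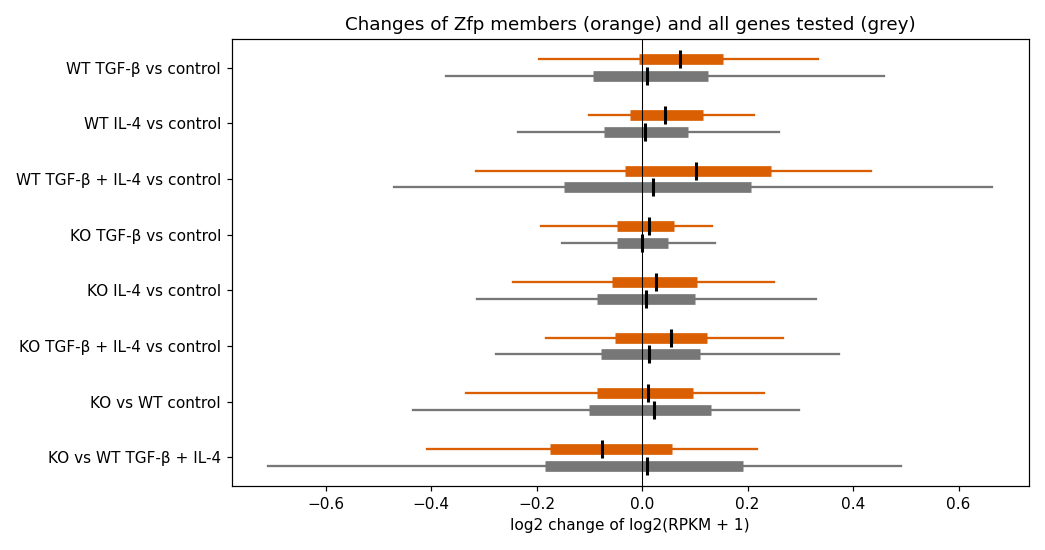
Change of log2(RPKM + 1) in 8 comparisons for the 201 members (orange) and all 9726 genes tested (grey). Ticks are medians, thick bars the middle 50% and thin lines the 5th to the 95th percentile. In WT TGF-β + IL-4 the median of the members is 0.10 and that of all genes 0.020, and the members' thin line reaches 0.43 where that of all genes reaches 0.66.

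**Figure D4:**
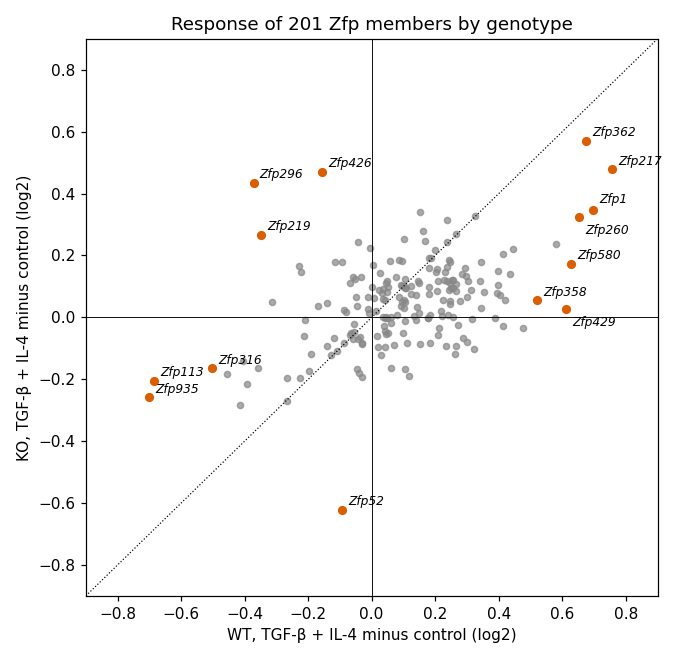
Change of log2(RPKM + 1) with TGF-β + IL-4 in WT (x axis) and in KO (y axis) for the 201 members, each point a member, with the dotted line marking equal changes and called members with a change over 0.34 in orange. *Zfp426*, *Zfp296* and *Zfp219* lie above 0 in KO and below it in WT.

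Between the genotypes under TGF-β + IL-4, 4 members were called, 2 higher and 2 lower in KO, against 9.16% of all genes. *Zfp358*, with 9 C2H2 patterns and no KRAB-like one, was lower. It was at 6.35, 5.30 and 4.94 RPKM in WT and 1.85, 2.39 and 2.23 in KO, which do not overlap, and differed by −1.05 ± 0.13 (limma adjusted p = 1.29e-06). *Zfp358* was lower in KO control as well, at 1.81, 2.69 and 1.67 against 3.58, 2.84 and 4.30 in WT control (−0.58, limma adjusted p = 0.00323), just under the fold, so the difference was not confined to the cytokines. *Zfp580* was the other lower member (−0.79 ± 0.080, limma adjusted p = 9.34e-08). It was also lower in KO control, at 2.18, 2.11 and 1.66 RPKM, by 0.33 on the log2 scale.

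*Zfp426* was higher in KO under TGF-β + IL-4. It was at 4.75, 5.03 and 4.93 RPKM in WT and 8.64, 9.10 and 8.91 in KO, a difference of 0.74 ± 0.062 (limma adjusted p = 4.81e-09), while the controls of the genotypes differed by 0.12 (limma adjusted p = 0.200). In WT TGF-β the gene had been lower than in control, at 3.87, 3.54 and 3.78 RPKM, by 0.48 (limma adjusted p = 4.93e-06), and in KO TGF-β it was at 6.14, 6.5 and 6.2. The responses to TGF-β differed by −0.51 (limma adjusted p = 0.000329), under the fold. WT libraries with TGF-β thus lay below those without it whether IL-4 was added or not. At the same TGF-β setting, libraries with IL-4 lay above those without it in both genotypes. *Zfp534* was the other higher member, at 3.28, 3.46 and 2.74 RPKM in KO and 1.97, 1.38 and 1.77 in WT (0.62 ± 0.13, limma adjusted p = 0.000511), but 61.8% of its 50-base words occur in other genes, and without KO TGF-β + IL-4 replicate 2 the difference was 0.57 and under the fold. Its call was also lost without replicate 1 (0.67, adjusted p = 0.0105 by limma) and without replicate 2 (0.48).

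At an adjusted p under 0.05, 12 members were higher in KO and 34 lower, where 24.5% and 20.6% of all genes were, and the median of the members was −0.076 against 0.010. Members higher in KO were thus 5.97% of 201. Scaling by median ratios gave 13 and 35. Without KO TGF-β + IL-4 replicate 2 the counts were 12 and 45, and leaving out replicate 1, 2 or 3 gave 5 to 11 higher and 14 to 28 lower.

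The genotypes' responses to TGF-β + IL-4 were also compared directly, a comparison added after the data were seen. It called 3 members, against 5.17% of all genes, and in each the change was below 0 in WT and above 0 in KO. *Zfp426* differed by −0.63 ± 0.087 (WT minus KO response, limma adjusted p = 2.6e-05). *Zfp296*, a C2H2 gene known from pluripotent cells, was at 8.11, 8.44 and 7.15 RPKM in WT control and 6.42, 6.31 and 4.97 with both cytokines. In KO cells it was at 7.26, 5.89 and 5.71 in control and 8.66, 8.70 and 9.03 with both, and the responses differed by −0.81 ± 0.13 (limma adjusted p = 0.000124). *Zfp219* was at 13.5, 14.1 and 12.3 in WT control and 11, 10.9 and 8.97 with both cytokines. In KO it was at 10.6, 9.87 and 8.94 and at 12, 11.4 and 12.5, with a difference of −0.61 ± 0.12 (limma adjusted p = 0.00104). The genotypes already differed in control, by −0.41 for *Zfp219* and −0.29 for *Zfp296* (KO minus WT, limma adjusted p = 0.00209 and 0.0304). Under both cytokines they differed by 0.21 and 0.51 (limma adjusted p = 0.0551 and 0.000107). *Zfp296* and *Zfp219* were also lower in WT TGF-β than in WT control, by 0.35 and 0.38 on the log2 scale. Without replicate 1 the calls of *Zfp219* (−0.70) and *Zfp426* (−0.57) were lost, without replicate 2 that of *Zfp219* (−0.65), and without replicate 3 those of *Zfp219* (−0.48) and *Zfp296* (−0.69). The TGF-β by IL-4 interaction in WT called no member, against 1.25% of all genes, with 6 members above and 3 below 0 at an unadjusted p under 0.05 in limma, against 11.7% and 9.84% of all genes.

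KO control against WT control called 1 member higher and 2 lower, against 2.64% of all genes, and 1 higher and 4 lower with libraries scaled by median ratios. *Zfp534* was higher, at 3.41, 3.09 and 3.38 RPKM in KO against 1.59, 2.02 and 1.81 in WT (0.61 ± 0.13, limma adjusted p = 0.00212). *Zfp935*, a KRAB zinc finger gene on chromosome 13, was at 19.4, 20.0 and 21.3 RPKM in WT control and 12.3, 11.2 and 5.84 in KO control, a difference of −1.03 ± 0.22 (limma adjusted p = 0.00260). *Zfp316* was at 2.63, 2.66 and 3.11 and at 1.86, 1.46 and 1.07, a difference of −0.64 ± 0.12 (limma adjusted p = 0.00119). The groups did not overlap in either gene, but KO control replicate 3 was the lowest of the 6 libraries in both, and without replicate 3 the differences were −0.70 (limma adjusted p = 0.134) and −0.46 (limma adjusted p = 0.115). *Zfp534* lost its call without replicate 1 (0.54) and without replicate 3 (0.60), and *Zfp935* lost it without replicate 1 (−1.24, adjusted p = 0.0161 by limma). With WT control and KO control alone in the fit, *Zfp316* and *Zfp935* had limma adjusted p of 0.0130 and 0.0199.

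*Zfp935*, *Zfp316* and *Zfp113* varied together from library to library within a culture, along with *Zfp605* and *Zfp933*. Over the 24 libraries, Pearson's r of their deviations from the culture means was between 0.87 and 0.94 for the pairs of the 5, where the median over 20100 pairs of members was 0.072. These 5 were picked for being alike, so r is a description. They lie on chromosomes 4, 5 and 13. The mean of the 5 was lowest against its culture in KO TGF-β + IL-4 replicate 2 (−0.38) and in KO control replicate 3 (−0.37). The calls of *Zfp316* and *Zfp935* were in a comparison that holds KO control replicate 3. That of *Zfp113* was between WT cultures, where the 5 also varied together. Against its culture, the mean of the 5 ran from -0.0905 to 0.141 in WT control and from -0.104 to 0.105 in WT TGF-β + IL-4. The source of the shared spread and its part in these calls were not tested.

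**Figure D5:**
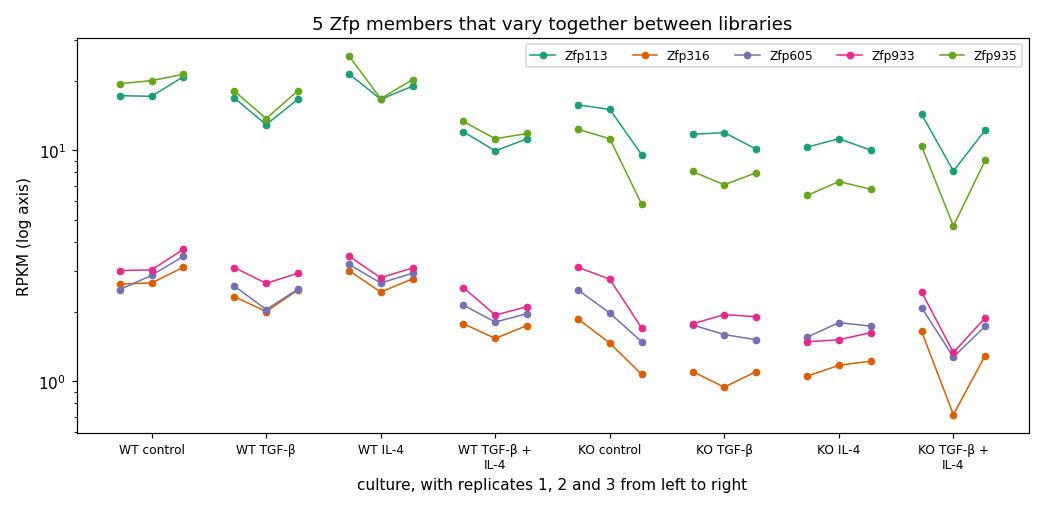
RPKM (log axis) of 5 members in the 24 libraries, with lines joining the 3 libraries of a culture only to guide the eye. Each of the 5 is lowest within its culture in KO control replicate 3 and also in KO TGF-β + IL-4 replicate 2.

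Some members were taken for a known role rather than for their values. Of these, *Zfp217* alone was called, and *Zfp207*, *Zfp706*, *Zfp91*, *Zfp143*, *Zfp148*, *Zfp346*, *Zfp407*, *Zfp451*, *Zfp746* and *Zfp932* had an adjusted p above 0.05 in each comparison of a cytokine with control. *Zfp161*, *Zfp318*, *Zfp521*, *Zfp57*, *Zfp608* and *Zfp683* did not reach the level of a member. *Zfp36* was at 12.8, 12.4 and 13.9 RPKM in WT control and 13.8, 14.6 and 15.3 with both cytokines (0.15, limma adjusted p = 0.323). In KO TGF-β + IL-4 it was at 13.1, 20.6 and 12.9, with replicate 2 far above the others. *Zfp335*, needed for T cell maturation, changed by 0.050 in WT TGF-β + IL-4 (limma adjusted p = 0.631), and *Zfp410*, an activator of *Chd4*, by 0.051 (limma adjusted p = 0.628). *Zfp809*, which silences retroviral elements, changed by 0.21 (limma adjusted p = 0.0223).

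A further 4 of them were higher in WT TGF-β + IL-4 below the fold. *Zfp609* changed by 0.42, *Zfp592* by 0.40, *Zfp703* by 0.45 and *Zfp871* by 0.43, with limma adjusted p between 0.000198 and 0.000866. *Zfp609* and *Zfp703* were lower in KO than in WT under both cytokines, by 0.44 and 0.40 on the log2 scale (limma adjusted p = 9.37e-05 and 0.00191). *Zfp281*, a repressor of pluripotency genes, was the 1 member past an adjusted p of 0.05 for the TGF-β by IL-4 interaction in WT (0.48, limma adjusted p = 0.0375), where 4% of all genes passed above 0. No member passed without replicate 1, 2 or 3. *Zfp281* was at 11.7, 11.2 and 12.3 RPKM in WT control, 9.34 to 9.83 with TGF-β, 9.25 to 10.3 with IL-4 and 10.6, 11.7 and 11.8 with both.

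The partners of KRAB zinc fingers were counted as a list. All 20 were tested, and in WT TGF-β + IL-4 1 of them was called, *Chd3* of the NuRD complex, against 8.46% of all genes. *Chd3* was at 3.87, 3.62 and 4.16 RPKM in control and 6.63, 6.77 and 7.19 with both cytokines (0.69 ± 0.10, limma adjusted p = 2.68e-05). It was lower in KO than in WT under TGF-β + IL-4, by 0.91 on the log2 scale (limma adjusted p = 5e-07). *Trim28* lay between 46.6 and 66.3 RPKM in the 24 libraries and was called in no comparison. The median change of the 20 was −0.064 in WT TGF-β + IL-4.

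Of 9 tested genes that bind AU-rich elements or act in mRNA decay, none passed in WT TGF-β + IL-4 against control. *Zfp36l1* was just under the fold there (0.58, limma adjusted p = 2.31e-07). Under both cytokines, 2 of the 9 were lower in KO than in WT. *Zfp36l1* was at 99.2, 96.9 and 90.2 RPKM in WT and 51.9, 50.9 and 53.2 in KO (−0.86, limma adjusted p = 4.27e-10), and *Zc3h12d*, which codes for a regnase, differed by −0.97 (limma adjusted p = 7.47e-09). Of the other zinc finger families in WT TGF-β + IL-4, 0 of 23 *Zbtb* genes, 0 of 12 *Zkscan* and *Zscan* genes and 2 of 8 *Klf* genes were called, where 8.46% of all genes were. The latter were *Klf10*, a TGF-β-induced gene (1.02, limma adjusted p = 3.3e-07), and *Klf2* (1.43, limma adjusted p = 0.00916).

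Open chromatin at the starts of members was taken from the 4 DHS lists, a DHS being a region that DNase I cuts above background. A DHS within 500 bp of the start was listed for 156 of 194 members (80.4%) in WT control and, with both cytokines, for 156 (80.4%), for 155 (79.9%) among KO control DHSs and 150 (77.3%) among those of KO TGF-β + IL-4. Over the 8990 tested genes that could be placed, the shares were 86.8%, 85.4%, 85.1% and 82.6%. With 1 library per condition and lists of 44298, 33880, 33665 and 27145 DHSs, no difference between conditions has a replicate check. In 150 members a DHS was listed in all 4 conditions and in 36 in none, which left 8 that varied.

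*Zfp358* was the member whose DHS was listed in WT TGF-β + IL-4 alone, with its summit 21 bp upstream of the start, inside the sequence shown above, a fold enrichment of 4.61 and a −log10 q of 6.95. *Zfp422*, *Zfp592*, *Zfp942* and *Zfp943* had a DHS in each list but that of KO TGF-β + IL-4, the shortest list. *Zfp772* had it in both WT lists, *Zfp575* in WT control and *Zfp800* in KO control. At *Zfp426* a DHS stood over the start in all 4 conditions, with fold enrichments of 11.1 in WT control and 10.7 with both cytokines, and of 10.0 and 8.05 in the same KO cultures. *Zfp580* also had a DHS in all 4, with fold enrichments of 3.17 to 3.77, and *Zfp467* and *Zfp362* had none within 500 bp of the annotated start in any.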

How the data were processed

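RNA-seq libraries were made by the Smart-seq2 method, which does not mark strand. Bowtie2 was used by the authors to map reads to mm9. Redundant reads and those of MAPQ 10 or less were dropped, and the authors deposited RPKM per gene. DHSs were called by the authors with MACS on each library, and the deposited lists give a fold enrichment over background and a −log10 q for each DHS. Versions are not given in the sources used here. RPKM hold no read totals. The steps between low values gave relative depths of 0.796 to 1.66 (median 1.17), and the DNase-seq depth is unknown.

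One limma 3.58.1 fit (R 4.3.3, trend on mean expression) was made on log2(RPKM + 1) of 24 libraries in 8 groups, over genes whose mean RPKM reached 1, with Benjamini-Hochberg adjustment over 9726 genes. The fit was also run on simulated data with independent noise for each gene and library, which does not test the calls made here. RPKM are not counts, so the count test of the study was not repeated. p-values rest on the spread between the 3 libraries within a culture, pooled over the 8 groups and moderated across genes. The main fit has no term for the replicate number, so libraries of the same number were treated as independent. The columns as headed, another pseudocount (0.1), no filter or a minimum of 5, median-ratio scaling, only the compared groups, no trend, a looser adjusted p (0.05), a block for the mouse number and each replicate left out in turn were alternatives. Replicate numbers were read as pairing libraries within a genotype, though the titles do not say that they name the mouse. Deviations of same-numbered libraries correlated with a median of 0.062 in WT and 0.19 in KO. For libraries of different numbers the medians were -0.032 and -0.12, and the ranges overlapped.

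Named genes were all called members (up to 8 per direction and comparison), the 10 highest, members of a listed role, those beside the threshold and the 5 of largest range. Other genes named were chosen after their values were seen. Members and lists were chosen with earlier results of these data known. Of the members with listed roles, those shown are examples. Gene starts and sequences are from GENCODE vM1 and mm9, with Python 3.11.15. A C2H2 finger was C, 2 to 4 residues, C, 12 residues, H, 3 to 5 residues and H or C.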

Additional observations from a re-analysis of the deposited data

Results flagged for a closer look

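In 4 members the response to a cytokine differed between WT and KO cells by a test of the difference itself (limma, WT minus KO response). *Zfp467* differed by −1.11 in its response to TGF-β, with an adjusted p of 0.00424, and its 3 WT TGF-β libraries were below all other WT libraries. Those 3 libraries were below 1 RPKM. In the response to TGF-β + IL-4, a comparison added after the data were seen, *Zfp296* differed by −0.81, *Zfp426* by −0.63 and *Zfp219* by −0.61. Each of the 4 calls depended on single replicates. *Zfp467* and *Zfp219* lost theirs without replicate 1, 2 or 3, *Zfp426* without replicate 1 and *Zfp296* without replicate 3. *Zfp296* and *Zfp219* were also lower in KO control than in WT control, as given above. The groups have 3 libraries each, so no search for a library far from its group by the gap to its neighbours was made.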

How the results depend on the processing

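Counts are of members called, and the reported count stands in parentheses where a comparison is first named. Read as headed, the columns gave 0 members in WT TGF-β (1 reported), WT TGF-β + IL-4 (7), KO TGF-β + IL-4 (1), KO against WT under both cytokines (4), genotype by TGF-β (1) and genotype by TGF-β + IL-4 (3), and 1 in KO against WT control (3), which was not one of the 3. A pseudocount of 0.1 gave 3 in WT TGF-β, 17 in WT TGF-β + IL-4, 2 in KO IL-4 (0 reported), 2 in KO TGF-β + IL-4, 6 in KO against WT control, 8 in KO against WT under both cytokines and 4 for genotype by TGF-β. Of all 9726 genes tested, that pseudocount called 642, 1014, 339, 346, 346, 1102 and 447 in the same order. A minimum mean of 5 RPKM gave 0, 2, 1, 1 and 0 members in WT TGF-β, WT TGF-β + IL-4, KO against WT control, KO against WT under both cytokines and genotype by TGF-β, where 72 members were left to test. An adjusted p under 0.05 with no minimum fold gave 24 in WT TGF-β, 2 in WT IL-4 (0 reported), 69 in WT TGF-β + IL-4, 12 in KO IL-4, 10 in KO TGF-β + IL-4, 24 in KO against WT control, 46 in KO against WT under both cytokines, 1 for the interaction in WT (0 reported), 9 for genotype by TGF-β and 15 for genotype by TGF-β + IL-4. Among all 9726 genes, 1929, 526, 3990, 1092, 1075, 1770, 4382, 634, 971 and 1913 passed it in the same order. At that threshold, genotype by TGF-β + IL-4 had 10 members above and 5 below 0, but 27 and 10 without KO TGF-β + IL-4 replicate 2, 1 and 3 without replicate 1 and 2 and 3 without replicate 3. KO against WT control had 9 higher and 15 lower, but 2 and 7 without replicate 1 and 3 and 2 without replicate 3. KO IL-4 had 10 and 2, but 3 to 5 and 1 to 3 without a replicate, and genotype by TGF-β 5 and 4, but 1 and 1 to 3. With only the compared groups in the fit there were 0 in KO TGF-β + IL-4 and 1 in KO against WT control. Scaling by median ratios gave 5 in KO against WT control, and no filter gave 0 for genotype by TGF-β. Apart from the smaller number of genes or samples that a setting leaves, the cause was not tested.

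Leaving out replicates gave 0 to 1 members in WT TGF-β, 4 to 8 in WT TGF-β + IL-4, 0 to 1 in KO IL-4, 0 to 2 in KO TGF-β + IL-4, 0 to 4 in KO against WT control, 0 to 1 for genotype by TGF-β and 1 to 5 for genotype by TGF-β + IL-4, the 5 being without KO TGF-β + IL-4 replicate 2, a setting chosen after seeing the data. Of the 20 calls, 9 were lost without replicate 1, 4 without replicate 2 and 11 without replicate 3, and 1 without KO TGF-β + IL-4 replicate 2. The calls of *Zfp1* and *Zfp362* in WT TGF-β + IL-4, and of *Zfp358*, *Zfp426* and *Zfp580* between the genotypes under both cytokines, stayed in each of these. A block for the replicate number gave the reported numbers of members called within a genotype (7 for WT TGF-β + IL-4, 1 for KO TGF-β + IL-4). It changed none of the 13 calls that it covered. KO against WT, in control and under both cytokines, was not fitted with this block. The numbers of members with a DHS at the start stayed within 1.5 times under all 12 alternatives. RPKM hold no read counts, so the depth behind a low value is unknown, and members near 1 RPKM are the least certain.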

Other observations

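The 5 members that varied together did so with many genes outside the family. Among the other 9721 genes tested, 149 had an r over 0.8 with the mean of the 5 within cultures (24 libraries), 3 of them members, and 6 had an r under −0.8. The 25 most alike included *Lepr* (r = 0.979, mean of 7.52 RPKM), the leptin receptor, *Cyp2e1* (r = 0.964, mean of 33.1 RPKM), a liver enzyme, and *Nmrk1* (r = 0.979). They were chosen after their values were seen, and the libraries are shared by all, so no p is given.

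Of the 5 members and the 25 genes, 27 had GENCODE vM1 transcripts, and 23 of these held the same run of 20 bases on either strand. The run was not compared with known repeats of the genome. Over all 22611 genes with transcripts, 257 (1.14%) held it. The run was picked from the 27, so these counts are a description. Among tested genes, 73 of 201 that held the run (36.3%) had an r over 0.8 with the 5, and 49 of 8653 that did not (0.566%). The 25 genes were not taken out here, so the 73 include genes from which the run was picked. Part of this contrast was thus fixed by the choice of the run. *Zfp113*, *Zfp605* and *Zfp933* held it and *Zfp316* and *Zfp935* did not in this annotation. *Zfp408* held it with r = 0.827, whereas *Zfp1* (r = −0.495), *Zfp426* (r = −0.161), *Zfp60* (r = −0.589) and *Zfp940* (r = −0.31) also held it. How much of the RPKM of these genes came from reads of the run was not tested.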
